A study of Mus musculus with 16 samples.

Results

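A set of 10 genes of the ovarian connective tissue matrix was followed across loss of the estrogen receptors (ER): lumican (Lum), decorin (Dcn), biglycan (Bgn), fibromodulin (Fmod), osteoglycin (Ogn), asporin (Aspn), prolargin (Prelp), osteonectin (Sparc), fibronectin (Fn1) and periostin (Postn). They were taken by name, as every probe whose gene name in the scanner files, or the current symbol of its accession, was one of the 10. A second and much dimmer Postn probe was matched only through an older symbol of the gene, and its values do not represent Postn in the tests. This gave 17 of the 41174 probes on the array and all 10 genes among the 24373 features tested. Whole ovaries of mice aged 1 year were profiled on single-colour (Cy3) Agilent whole mouse genome arrays, 4 arrays in each of 4 groups. Ex3abERKO ovaries lacked both ERα and ERβ, Ex3aERKO ovaries came from ERα knockout mice, Ex3bERKO ovaries came from ERβ knockout mice, and control ovaries carried one allele of each receptor, so that the controls are not wild type. An array is written as its group followed by its replicate, such as Ex3abERKO 3. Nothing in the labels states whether a group's 4 samples were different animals, and p-values therefore cover only the spread among these samples, part of which could be technical.

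Small leucine-rich proteoglycans are secreted proteins with a curved repeat domain that binds collagen fibrils, and many carry chondroitin, dermatan or keratan sulfate chains. They set the width and spacing of collagen fibrils and bind growth factors of the TGFβ family. Matricellular proteins such as osteonectin and periostin sit in the same matrix and alter how cells attach to it, while fibronectin is an adhesive scaffold bound by integrins. In the ovary many of these proteins are made by stromal and thecal fibroblasts, though not by them alone. Follicles and corpora lutea are rebuilt within this matrix at each cycle. Estrogen acts on ovarian cells through ERα, found mostly in theca, stroma and surface epithelium, and ERβ, found mostly in granulosa cells.

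Levels are given as log2 of a probe's processed signal divided by the 75th percentile of its array, so that 0 is the 75th percentile and 1 unit is a doubling. The 75th percentile lay between 1211 and 1806 intensity units, 80.4% to 87.6% of spots were well above background on an array, and the probe that represented each of the 10 genes was well above background and unsaturated on all 16 arrays. Differences are means of log2 levels with the standard error (SE) of a limma fit over all 16 arrays, and a gene was called where its Benjamini-Hochberg adjusted p over the 24373 features was under 0.05. Esr1, which encodes ERα, read -2.11 to -1.04 in Ex3abERKO, -3.66 to -1.89 in Ex3aERKO and -1.06 to 0.34 in Ex3bERKO ovaries, against -0.32 to 0.20 in control ovaries. Esr2, which encodes ERβ, read -2.54 to -1.61 in Ex3abERKO, -1.07 to 1.58 in Ex3aERKO and -0.58 to 1.00 in Ex3bERKO ovaries, against -0.33 to 0.34 in control ovaries. Whether these probes lie in the deleted part of either gene was not determined here, so the Esr2 level in Ex3bERKO ovaries does not check that label. The 16 arrays lay on 4 slides, and differences within a slide are given beside the results. Arrays Ex3aERKO 2, Ex3abERKO 2 and control 4 had the highest summed levels of liver, oviduct and erythroid genes, in that order. They are named below as the 3 arrays that stood apart. The summed erythroid level (log2) of control 4, 8.54, was above those of the other control arrays (4.74 to 5.53) but near that of Ex3abERKO 3 (8.16). Ex3abERKO 3 received the lowest array weight (0.191) of the 16.

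Loss of both receptors went with the most called differences. In Ex3abERKO against control ovaries, 4 of the 10 genes were called, with Fmod, Prelp and Dcn higher and Lum lower, where 22.3% of all features tested were called. The median log2 difference of the 10 genes was 0.45, and that of all features was -0.11. In Ex3aERKO against control ovaries 2 were called, Fmod higher and Lum lower, with 8.05% of all features called and medians of 0.18 over the 10 genes and -0.08 over all features. In Ex3bERKO against control ovaries limma called 0 of the 10, with 1.03% of all features called. There, 2 of the 10 (Dcn and Ogn) and 2392 of all 24373 features had an unadjusted limma p under 0.05. The 3 comparisons share the control arrays. In bulk ovary, fewer cells of a type and less RNA per cell cannot be told apart.

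**Figure D1:**
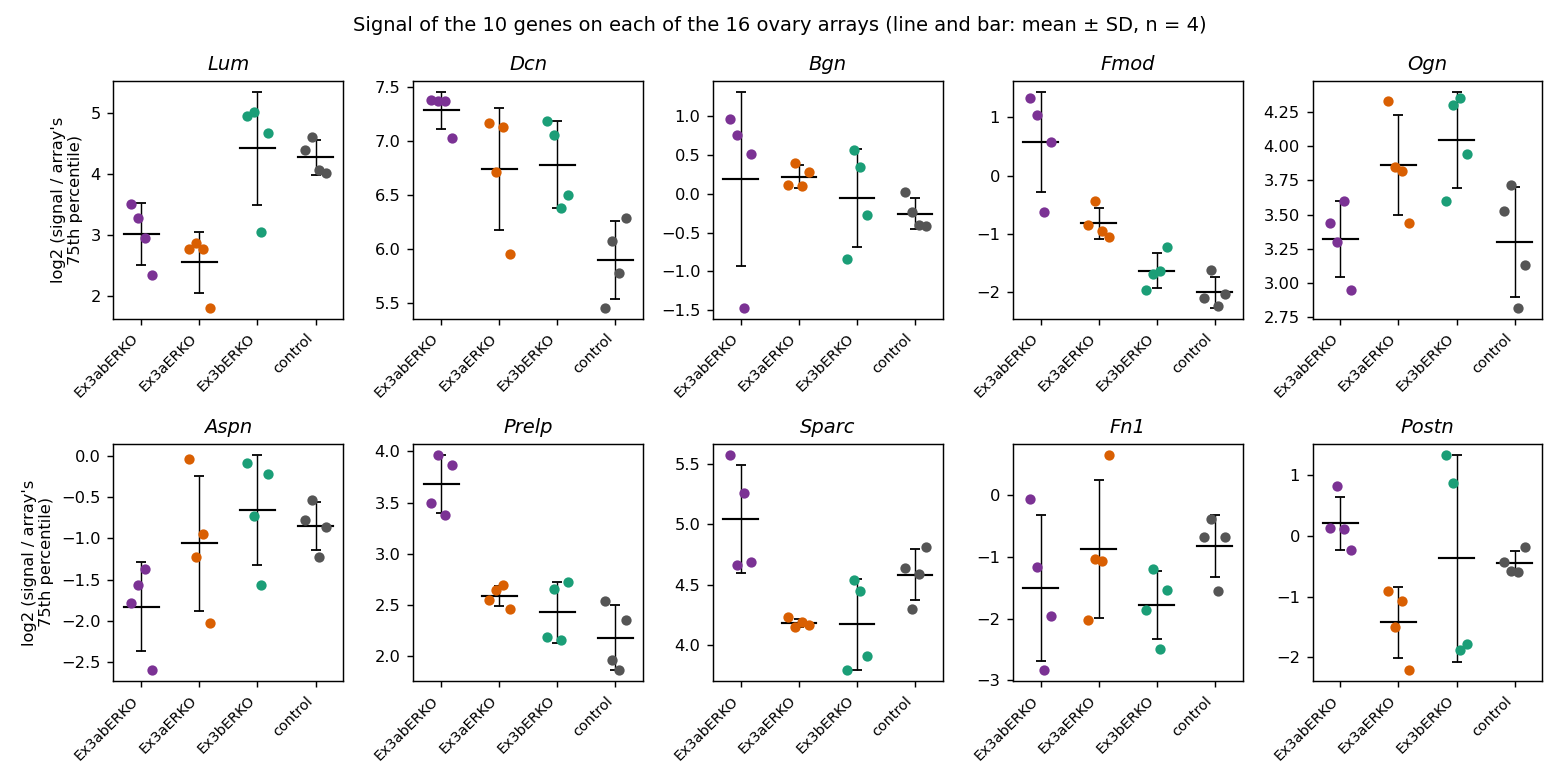
Log2 level (signal over the array's 75th percentile, y axis) of the 10 genes on each array, one point per array, with groups along the x axis and line and bar for mean ± SD (n = 4). All 4 Ex3abERKO arrays lie above all 4 control arrays for Fmod, Prelp and Dcn and below them for Lum, and the vertical scale differs between panels.

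Fibromodulin, a keratan sulfate proteoglycan that binds fibril-forming collagens and guides their cross-linking, showed the largest difference among the 10 genes in Ex3abERKO against control ovaries. Fmod read 1.32, 1.04, -0.62 and 0.57 in Ex3abERKO ovaries and -0.84, -0.44, -0.94 and -1.05 in Ex3aERKO ovaries. It read -1.95, -1.69, -1.64 and -1.22 in Ex3bERKO ovaries, against -2.10, -1.62, -2.24 and -2.02 in control ovaries. All Ex3abERKO and all Ex3aERKO arrays were above every control array, while Ex3bERKO and control arrays overlapped, and Ex3abERKO 3 lay among the Ex3aERKO arrays. Fmod rose by 2.57 ± 0.33 in Ex3abERKO ovaries (5.95-fold, limma adjusted p = 0.000163) and by 1.18 ± 0.33 in Ex3aERKO ovaries (2.26-fold, adjusted p = 0.0418), and its difference in Ex3bERKO ovaries was 0.37 ± 0.33 (adjusted p = 0.848). Within slides the difference from control lay between 1.49 and 3.20 in Ex3abERKO (3 slides) and between 0.77 and 1.66 in Ex3aERKO (4 slides), and with the slide as a fixed block it was 2.52 (adjusted p = 0.000606) and 1.18 (adjusted p = 0.0443). The Ex3aERKO call was kept without Ex3aERKO 4, Ex3abERKO 1, 2 or 3, Ex3bERKO 1 or 4, or control 2, and lost without any other single array (adjusted p 0.0503 to 0.131). It was also lost with normexp background correction (0.279) and without the 3 arrays that stood apart (0.236).

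Prolargin, a basic leucine-rich protein that binds heparan sulfate and collagen at basement membranes, is encoded near fibromodulin on chromosome 1, with 2 annotated genes (Bmncr and Gm18970) between them. Prelp read 3.50, 3.97, 3.38 and 3.87 in Ex3abERKO ovaries and 2.55, 2.64, 2.69 and 2.46 in Ex3aERKO ovaries. It read 2.18, 2.65, 2.15 and 2.72 in Ex3bERKO ovaries, against 2.54, 1.96, 1.86 and 2.35 in control ovaries. The 4 Ex3abERKO arrays stood above all 12 others, and the single knockouts overlapped with control. Prelp rose by 1.50 ± 0.20 in Ex3abERKO ovaries (2.83-fold, adjusted p = 0.000192), by 0.84 to 2.01 within 3 slides and by 1.46 with the slide as a fixed block (adjusted p = 0.000836). Its differences from control were 0.41 ± 0.20 in Ex3aERKO (adjusted p = 0.256) and 0.25 ± 0.20 in Ex3bERKO ovaries (adjusted p = 0.817).

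A second and much dimmer Prelp probe, at chr1:133804829-133804888 (mm7), differed by 0.45 in Ex3abERKO against control ovaries (adjusted p = 0.413 over 36227 probes), so that the 2 probes of Prelp disagree in size and call. It is printed to show which bases the uncalled reading rests on, in lower case.
Prelp second probe: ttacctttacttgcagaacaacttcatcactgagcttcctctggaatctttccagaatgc
The promoter windows of both genes are shown because Fmod and Prelp lie 107.2 kb apart on chromosome 1 and were both called higher in Ex3abERKO ovaries. Each holds the 250 bases before an annotated start (RefSeq, GRCm38.p6), at chr1:134037004-134037253 on the plus strand for Fmod and at chr1:133921402-133921651 on the minus strand for Prelp, with matches to the motifs searched in capitals. The Prelp window lies inside the annotated span of the gene (chr1:133910304-133930102). The distance of 107.2 kb was measured from the end of that span and not from this start.
Fmod promoter: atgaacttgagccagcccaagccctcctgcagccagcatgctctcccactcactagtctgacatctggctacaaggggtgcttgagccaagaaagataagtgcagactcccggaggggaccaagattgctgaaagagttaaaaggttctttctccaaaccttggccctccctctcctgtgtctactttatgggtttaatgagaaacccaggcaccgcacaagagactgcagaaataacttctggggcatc
Prelp promoter: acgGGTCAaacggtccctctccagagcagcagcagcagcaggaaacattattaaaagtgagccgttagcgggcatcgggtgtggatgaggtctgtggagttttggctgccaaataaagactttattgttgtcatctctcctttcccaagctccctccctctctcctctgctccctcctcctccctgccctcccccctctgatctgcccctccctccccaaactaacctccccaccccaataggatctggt
The motifs, searched on both strands, were the palindromic estrogen response element, its single arm GGTCA (which every palindrome also holds), the AP-1 site TGANTCA, the SP1 site GGGCGG and the TATA box TATAAA. The capitals in the Prelp window are 1 such arm, from 247 to 243 bases before the start, and the Fmod window held none of the 5 motifs. Windows were held for 7 of the 10 genes, 8 windows in all with 2 for Postn. The single arm was in the windows of Prelp, Postn and Sparc and in 35.2% of all 32851 windows, and the palindrome was in 0 of the 8 and in 0.0639% of all windows. The SP1 site was in the Bgn window and in 32.7% of all windows, the TATA box was in the windows of Postn, Aspn and Ogn and in 12.4% of all windows, and the AP-1 site was in 0 of the 8 and in 6.75% of all windows. The TATA matches lay from 26 to 21 bases before a Postn start. Those of Aspn lay from 207 to 202 and from 178 to 173 bases before its start. Those of Ogn lay from 229 to 224 and from 227 to 222 bases before its start. A match is a string of letters and was not tested for binding.

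**Figure D2:**
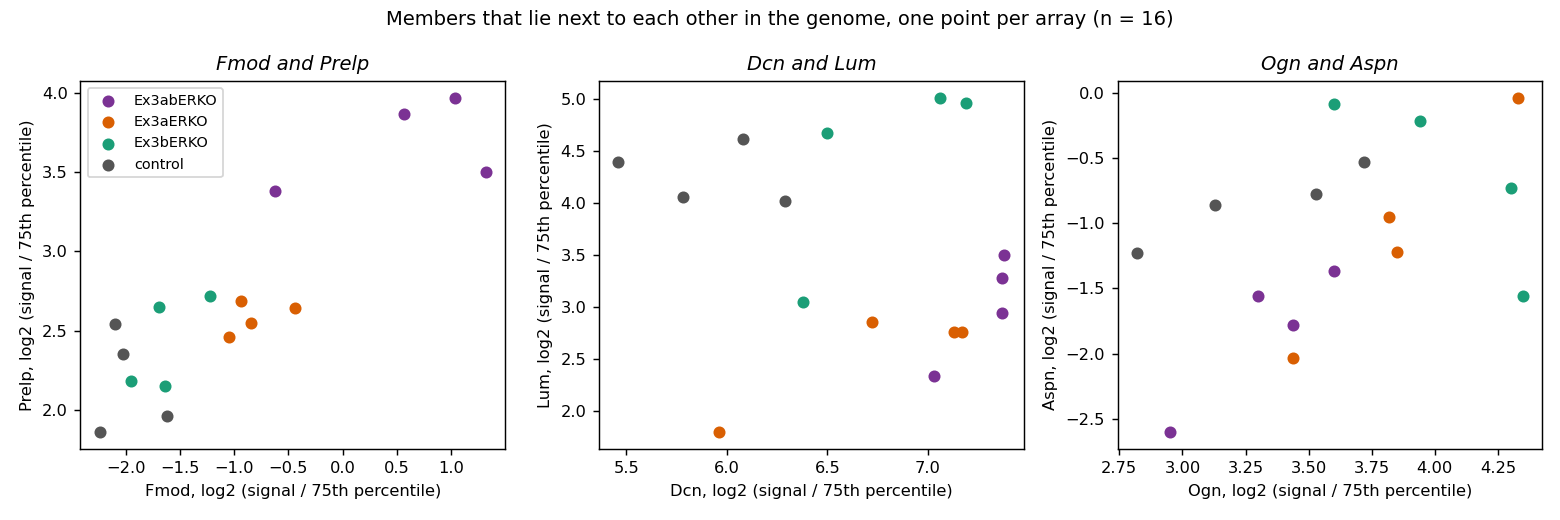
Log2 levels of pairs of the 10 genes that lie near each other in the genome, one point per array (n = 16), with one gene on each axis. The Ex3abERKO arrays lie at the upper right for Fmod and Prelp, whereas for Dcn and Lum they lie to the right of and below the control arrays.

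Decorin, a single-chain dermatan sulfate proteoglycan that coats collagen fibrils and binds TGFβ, was read by a probe at the end of its reading frame, at chr10:97080086-97080145 (mm7). In the frame that begins at the first base, 18 codons precede the stop codon, shown in capitals, and the probe is printed because the Dcn result rests on it.
Dcn probe: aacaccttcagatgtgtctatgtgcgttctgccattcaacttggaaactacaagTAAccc
Dcn read 7.38, 7.37, 7.37 and 7.03 in Ex3abERKO ovaries and 7.17, 6.72, 7.13 and 5.96 in Ex3aERKO ovaries. It read 7.19, 7.06, 6.38 and 6.50 in Ex3bERKO ovaries, against 5.46, 6.08, 5.78 and 6.29 in control ovaries. All Ex3abERKO and all Ex3bERKO arrays lay above every control array, and Ex3aERKO overlapped with control through 1 low array, Ex3aERKO 4. Dcn rose by 1.38 ± 0.28 in Ex3abERKO ovaries (2.61-fold, adjusted p = 0.00259), by 1.08 to 1.90 within 3 slides and by 1.36 with the slide as a fixed block (adjusted p = 0.00221). The differences in Ex3aERKO (0.84 ± 0.28, adjusted p = 0.0775) and in Ex3bERKO ovaries (0.88 ± 0.28, adjusted p = 0.196) had the same sign and were not called. Without Ex3aERKO 4 the Ex3aERKO difference was 1.10 and was called (adjusted p = 0.012), as it was with the slide as a fixed (0.0374) or random block (0.0425), quantile normalization (0.0162), array weights (0.00457), or a trended and robust fit (0.0487). With all probes of a gene averaged, the Dcn difference was 0.41 in Ex3aERKO (adjusted p = 0.506) and 0.92 in Ex3abERKO ovaries (adjusted p = 0.0338). A second probe named Dcn through a cDNA at another position on the same chromosome was much dimmer and differed by 0.46 in Ex3abERKO against control ovaries (adjusted p = 0.389 over probes).

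Lumican, the keratan sulfate proteoglycan known for fibril spacing in the cornea, was lower in Ex3abERKO ovaries, where Dcn was higher, and it lies 47.3 kb from Dcn on chromosome 10 with no annotated gene between them. Lum read 3.50, 3.28, 2.94 and 2.34 in Ex3abERKO ovaries and 2.76, 2.86, 2.76 and 1.80 in Ex3aERKO ovaries. It read 4.96, 5.01, 3.05 and 4.67 in Ex3bERKO ovaries, against 4.39, 4.61, 4.06 and 4.02 in control ovaries. Every array of the 2 groups without ERα was below every control array, and the Ex3bERKO arrays lay on both sides of the control arrays. Lum fell by 1.73 ± 0.40 in Ex3aERKO ovaries (3.31-fold, adjusted p = 0.0152) and by 1.25 ± 0.40 in Ex3abERKO ovaries (2.38-fold, adjusted p = 0.0352), and its difference in Ex3bERKO ovaries was 0.15 ± 0.40 (adjusted p = 0.977). Within slides the difference from control lay between -2.25 and -1.26 in Ex3aERKO and between -1.72 and -0.63 in Ex3abERKO, and with the slide as a fixed block it was -1.73 (adjusted p = 0.00189) and -1.20 (adjusted p = 0.00766). Without the 3 arrays that stood apart the differences were -1.91 (adjusted p = 0.0745) in Ex3aERKO and -1.43 (adjusted p = 0.0823) in Ex3abERKO. The Ex3abERKO call was also lost with median scaling (0.057), with normexp correction (0.0583), and without Ex3abERKO 2 (0.0515), 3 (0.0592) or 4 (0.1) or control 1 (0.0779), 2 (0.0895) or 3 (0.0588).

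Biglycan, the X-linked relative of decorin that also acts as a ligand of toll-like receptors when released, read 0.97, 0.76, -1.47 and 0.51 in Ex3abERKO ovaries and 0.11, 0.40, 0.10 and 0.28 in Ex3aERKO ovaries. It read -0.84, 0.56, 0.34 and -0.27 in Ex3bERKO ovaries, against 0.03, -0.24, -0.40 and -0.41 in control ovaries. Ex3abERKO 3 was the lowest of the 16 arrays for Bgn, and the other 3 Ex3abERKO arrays were above every control array. The Ex3abERKO difference was 0.45 ± 0.43 (adjusted p = 0.529) with all arrays, 1.00 (adjusted p = 0.0168) without Ex3abERKO 3 and 0.91 (adjusted p = 0.0261) with array weights. In Ex3aERKO ovaries Bgn differed from control by 0.48 ± 0.43 (adjusted p = 0.629), and in Ex3bERKO ovaries by 0.20 ± 0.43 (adjusted p = 0.969). A second and much dimmer Bgn probe differed from control by 0.28 in Ex3abERKO (limma adjusted p = 0.501 over probes), -0.175 in Ex3aERKO (0.818) and -0.13 in Ex3bERKO ovaries (0.969). On it Ex3abERKO 3 read -5.67, the lowest of its group but inside the control range of -6.26 to -5.10.

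Asporin and osteoglycin lie 40.4 kb apart on chromosome 13, with osteomodulin (Omd) between them. Aspn, which encodes a decorin relative that binds collagen and TGFβ, read -1.78, -1.56, -1.37 and -2.60 in Ex3abERKO ovaries and -0.04, -1.22, -0.95 and -2.03 in Ex3aERKO ovaries. It read -0.09, -0.73, -1.56 and -0.22 in Ex3bERKO ovaries, against -0.78, -0.53, -1.23 and -0.86 in control ovaries. The Ex3abERKO arrays were all below the control arrays, and both single knockouts overlapped with control. The Ex3abERKO difference was -0.98 ± 0.41 (adjusted p = 0.1), with -1.38 to -0.58 within 3 slides, and with the slide as a fixed block it was -0.82 and called (adjusted p = 0.013). Its differences in Ex3aERKO (-0.21 ± 0.41, adjusted p = 0.86) and Ex3bERKO ovaries (0.20 ± 0.41, adjusted p = 0.966) were within the spread.

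Osteoglycin, a leucine-rich protein also called mimecan, read 3.44, 3.30, 3.60 and 2.95 in Ex3abERKO ovaries and 4.33, 3.85, 3.82 and 3.44 in Ex3aERKO ovaries. It read 3.60, 4.30, 4.35 and 3.94 in Ex3bERKO ovaries, against 3.53, 3.72, 2.82 and 3.13 in control ovaries. The single knockouts were mostly high, and Ex3abERKO and control arrays covered nearly the same range. Ogn differed from control by 0.02 ± 0.25 in Ex3abERKO (adjusted p = 0.963), 0.56 ± 0.25 in Ex3aERKO (adjusted p = 0.203) and 0.75 ± 0.25 in Ex3bERKO ovaries (adjusted p = 0.23). Array weights brought the Ex3aERKO difference to 0.74 and a call (adjusted p = 0.0272). Omd had group means of 0.03 in Ex3abERKO, 1.64 in Ex3aERKO, 1.27 in Ex3bERKO and 0.20 in control ovaries, and it was lower in Ex3abERKO than in Ex3aERKO ovaries by 1.61 (adjusted p = 0.0355).

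Osteonectin, a calcium- and collagen-binding matricellular protein that counters cell adhesion, read 5.58, 4.66, 5.26 and 4.69 in Ex3abERKO ovaries and 4.23, 4.15, 4.19 and 4.17 in Ex3aERKO ovaries. Sparc read 3.79, 4.54, 4.45 and 3.91 in Ex3bERKO ovaries, against 4.64, 4.30, 4.59 and 4.81 in control ovaries. The Ex3aERKO arrays lay close together and below all control arrays, and the Ex3abERKO arrays overlapped with control. The differences from control were 0.46 ± 0.22 in Ex3abERKO (adjusted p = 0.165), -0.40 ± 0.22 in Ex3aERKO (adjusted p = 0.352) and -0.41 ± 0.22 in Ex3bERKO ovaries (adjusted p = 0.612).

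Periostin, a matricellular protein of tissues under load that binds integrins and assists collagen cross-linking, read 0.13, 0.82, 0.12 and -0.24 in Ex3abERKO ovaries and -0.91, -1.50, -1.07 and -2.22 in Ex3aERKO ovaries. Postn read 1.34, 0.87, -1.88 and -1.79 in Ex3bERKO ovaries, against -0.43, -0.58, -0.59 and -0.18 in control ovaries. The Ex3bERKO arrays formed a high and a low pair on either side of the control arrays, and the Ex3aERKO arrays were all below control. Its differences from control were 0.65 ± 0.61 in Ex3abERKO (adjusted p = 0.51), -0.98 ± 0.61 in Ex3aERKO (adjusted p = 0.416) and 0.08 ± 0.61 in Ex3bERKO ovaries (adjusted p = 0.995).

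Fibronectin read -0.06, -1.17, -2.84 and -1.96 in Ex3abERKO ovaries and -2.03, -1.03, -1.06 and 0.66 in Ex3aERKO ovaries. Fn1 read -1.86, -1.20, -2.50 and -1.54 in Ex3bERKO ovaries, against -0.67, -0.39, -1.55 and -0.67 in control ovaries. Each group overlapped with control, and the arrays of the 2 groups without ERα spread widely. The probe was spotted 10 times on each array, and those spots had an SD of 0.05 to 0.13 on the log2 scale within an array. The differences were -0.69 ± 0.58 in Ex3abERKO (adjusted p = 0.459), -0.05 ± 0.58 in Ex3aERKO (adjusted p = 0.983) and -0.96 ± 0.58 in Ex3bERKO ovaries (adjusted p = 0.69), and the confidence interval of the Ex3abERKO difference ran from -1.93 to 0.56. The Fn1 difference in Ex3aERKO ovaries has no settled sign: it was -0.55 without Ex3aERKO 4 and 0.34 without Ex3aERKO 1, and its sign turned in 7 of 30 alternatives.

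**Figure D3:**
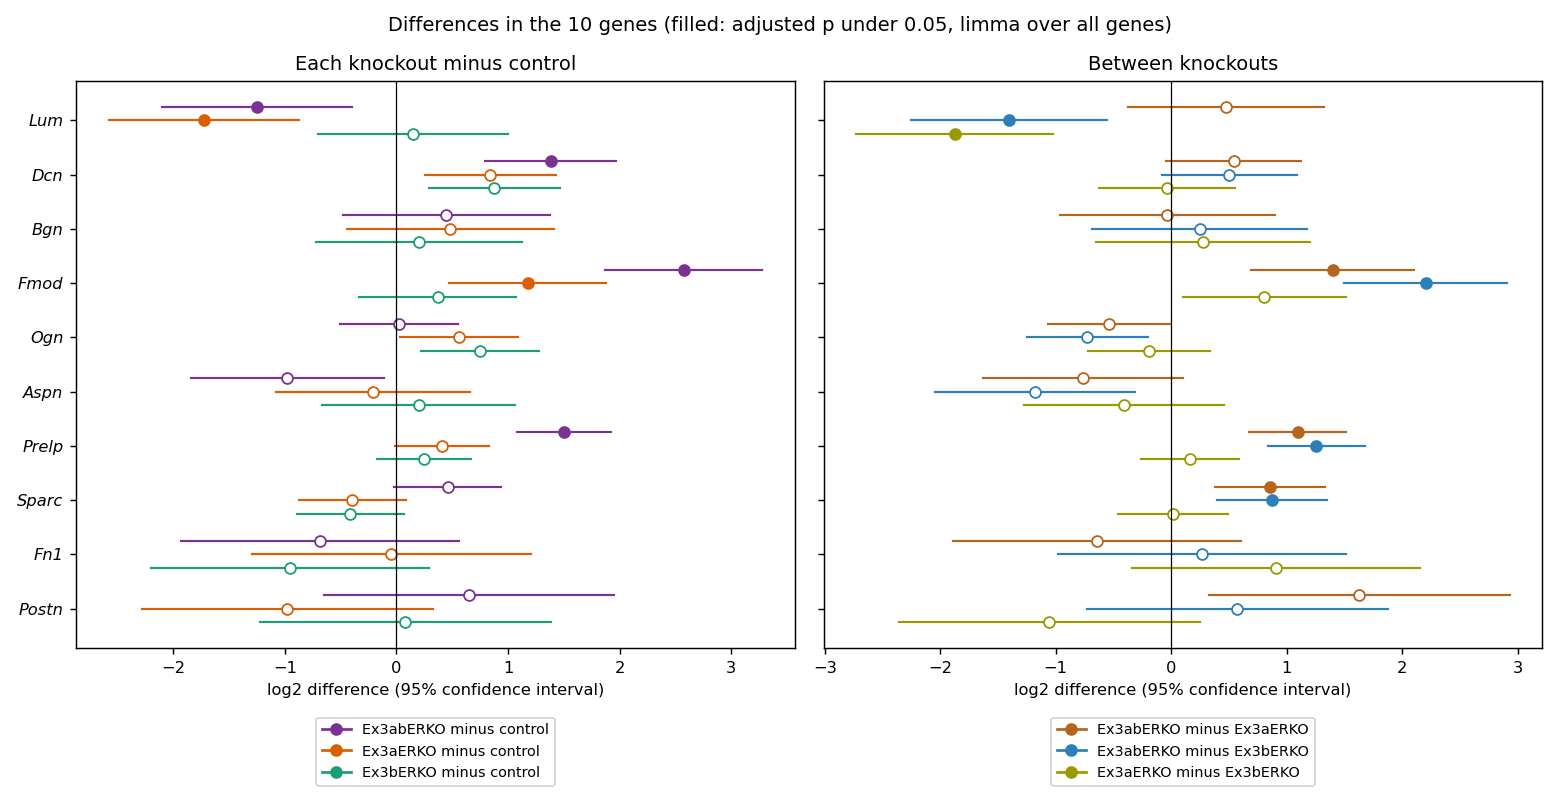
Log2 differences (x axis) of the 10 genes with 95% confidence intervals, each knockout against control on the left and knockouts against each other on the right, with filled points for an adjusted p under 0.05. The widest intervals are those of Fn1 and Postn, and the 3 called rises in Ex3abERKO against control are Fmod (2.57), Prelp (1.50) and Dcn (1.38).

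**Figure D4:**
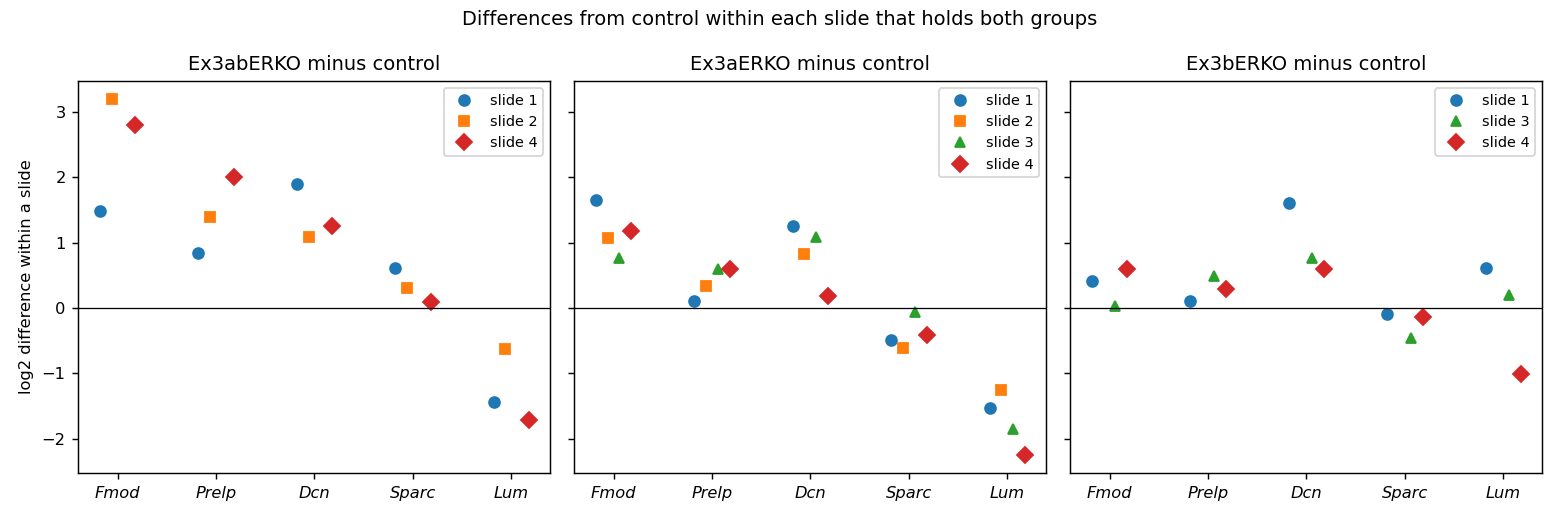
Log2 differences from control (y axis) within each slide that held both groups, one symbol per slide, for the 5 genes called in any comparison. Fmod, Prelp and Dcn are above 0 and Lum is below 0 on every slide for Ex3abERKO and Ex3aERKO.

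The effect of losing the second receptor was asked by setting Ex3abERKO ovaries against each single knockout. Against Ex3aERKO ovaries, where the added loss is that of ERβ, 3 of the 10 genes were called and all 3 were higher, with 7.73% of all features called and medians of 0.51 over the 10 genes and -0.01 over all features. Prelp was higher by 1.09 ± 0.20 (2.13-fold, adjusted p = 0.00481), with no overlap between the groups, and Fmod by 1.40 ± 0.33 (2.64-fold, adjusted p = 0.0191), with Ex3abERKO 3 inside the Ex3aERKO range. Within the 3 shared slides the Fmod difference ran from -0.18 on slide 1, the slide of Ex3abERKO 3, to 2.12, and that of Prelp from 0.74 to 1.41. With the slide as a fixed block they were 1.35 (adjusted p = 0.0342) and 1.05 (adjusted p = 0.0132). Prelp lost the call when all probes of a gene were averaged (0.80, adjusted p = 0.056). Fmod lost it without Ex3aERKO 4 (0.0587), Ex3abERKO 1 (0.0507) or Ex3abERKO 2 (0.0583), with normexp (0.0544), in a fit of these 2 groups (0.107) and without the 3 arrays that stood apart (0.0808).

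Sparc was higher in Ex3abERKO than in Ex3aERKO ovaries by 0.86 ± 0.22 (1.81-fold, adjusted p = 0.0312), and the 2 groups did not overlap. The call was lost in 12 of 30 alternatives, among them the slide as a fixed block (0.75, adjusted p = 0.0578), normexp (adjusted p = 0.147), and the omission of any one Ex3aERKO array (0.0609 to 0.0745) or of Ex3abERKO 1 (0.0776) or 3 (0.0581). With the replicate number as a block its adjusted p was 0.0549. Within the 3 shared slides the difference ran from 0.51 to 1.11. A second Sparc probe, whose mapped bases span 2658 bases of the genome at chr11:55352704-55355361 (mm7) and so cross an exon junction, is printed because it read the same transcript at another place.
Sparc second probe: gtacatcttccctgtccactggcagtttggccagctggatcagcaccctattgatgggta
That probe differed by 0.68 in Ex3abERKO against Ex3aERKO (adjusted p = 0.098 over probes) and by 0.73 in Ex3abERKO against Ex3bERKO ovaries (adjusted p = 0.047 over probes). Postn was higher in all 4 Ex3abERKO arrays than in any Ex3aERKO array, by 1.63 ± 0.61, and was not called (adjusted p = 0.124), although it was in a fit of these 2 groups (adjusted p = 0.0469). Averaging its probes also gave a call (1.37, adjusted p = 0.0253), which rests in part on the probe matched through an older symbol.

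Against Ex3bERKO ovaries, where the added loss is that of ERα, 4 of the 10 genes were called, with Fmod, Prelp and Sparc higher and Lum lower, where 16.6% of all features were called and the medians were 0.39 over the 10 genes and -0.10 over all features. Fmod was higher by 2.21 ± 0.33 (4.61-fold, adjusted p = 0.000819) and Prelp by 1.26 ± 0.20 (2.39-fold, adjusted p = 0.0011), and neither gene's groups overlapped. Sparc was higher by 0.87 ± 0.22 (1.83-fold, adjusted p = 0.0167), again with no overlap, and Lum was lower by 1.40 ± 0.40 (2.64-fold, adjusted p = 0.0268), where Ex3bERKO 3 lay among the Ex3abERKO arrays. The 2 slides that held both groups gave 1.07 and 2.21 for Fmod, 0.74 and 1.72 for Prelp, 0.24 and 0.72 for Sparc, and -2.07 and -0.71 for Lum. With the slide as a fixed block the difference was 2.10 for Fmod (adjusted p = 0.00744), 1.16 for Prelp (0.012), -1.30 for Lum (0.0199) and 0.66 for Sparc, which was then not called (0.111). Sparc also lost the call with normexp (0.0853), in a fit of these 2 groups (0.0889) and without Ex3bERKO 1 (0.0558) or 4 (0.0581). Lum lost it in a fit of these 2 groups (0.0904), without the 3 arrays that stood apart (0.0649), and without Ex3abERKO 4 (0.0773) or Ex3bERKO 1 (0.0799), 2 (0.0663) or 4 (0.0766).

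Ogn and Aspn were lower in Ex3abERKO than in Ex3bERKO ovaries by values near the threshold. The Ogn difference was -0.73 ± 0.25 (adjusted p = 0.0579), where the highest Ex3abERKO and lowest Ex3bERKO arrays both read 3.60, and the Aspn difference was -1.18 ± 0.41 (adjusted p = 0.0611). Each was called in 7 of 30 alternatives, among them array weights (0.0385 for Ogn and 0.0468 for Aspn) and the omission of Ex3abERKO 3 (0.0429 and 0.0485) or Ex3aERKO 4 (0.0472 and 0.0364). Aspn was also called with the slide as a fixed block (-0.86, adjusted p = 0.0346) and without Ex3bERKO 3 (0.03) or Ex3aERKO 1 (0.0391), and Ogn without Ex3bERKO 1 (0.0423).

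Between the single knockouts, 1 of the 10 genes was called, with 2.35% of all features called. Lum was lower in Ex3aERKO than in Ex3bERKO ovaries by 1.88 ± 0.40 (3.67-fold, adjusted p = 0.0212), and the 2 groups did not overlap. On the 3 slides with both groups the difference was -2.15 to -1.25, and with the slide as a fixed block the difference was -1.83 (adjusted p = 0.0039). The call was lost in a fit of these 2 groups (0.135), without Ex3bERKO 1 (0.0819) or 4 (0.0796), and without the 3 arrays that stood apart (0.0836). Fmod was higher in all 4 Ex3aERKO arrays than in any Ex3bERKO array, by 0.81 ± 0.33, and was not called (adjusted p = 0.289).

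Whether the 2 losses add up was read from the interaction, the effect of ERβ loss without ERα minus its effect with ERα present. Sparc, 1 of the 10 genes, was called, with 3.57% of all features called and medians of 0.32 over the 10 genes and 0.00 over all features. The interaction of Sparc was 1.27 ± 0.32 (adjusted p = 0.0405): the effect of ERβ loss was 0.86 where ERα was absent and -0.41 where it was present. This call was lost in 18 of 29 alternatives, with adjusted p up to 0.284 (normexp), and it was kept without Ex3abERKO 2 or 4, Ex3bERKO 2 or control 2 and lost without any other single array (0.0504 to 0.0905). With the slide as a fixed block the interaction was 1.06 (adjusted p = 0.118), and on the second Sparc probe it was 1.04 and not called (adjusted p = 0.12 over probes). That of Ogn was -1.29 ± 0.35 (adjusted p = 0.058), and it was called in 9 of 29 alternatives, 4 of them the omission of Ex3aERKO 4 (0.0443), Ex3abERKO 3 (0.0419), Ex3bERKO 1 (0.0422) or control 2 (0.0404). The interaction of Fmod was 1.03 ± 0.47 (adjusted p = 0.289), and it was 1.43 and called (0.0187) without Ex3abERKO 3. For Omd, the neighbour of Ogn, looked at after its values were seen, the interaction was -2.69 (adjusted p = 0.0266).

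Markers of the cells that a whole ovary holds moved between the same groups. Against control ovaries, 22.3% of all features were called in Ex3abERKO, 8.05% in Ex3aERKO and 1.03% in Ex3bERKO ovaries. Of 15 stromal and fibroblast markers, 5 rose in Ex3abERKO against control ovaries and 0 fell, and their summed level was 6.82 to 8.14 in Ex3abERKO, 5.81 to 6.77 in Ex3aERKO and 6.36 to 7.10 in Ex3bERKO ovaries, against 6.18 to 6.76 in control ovaries (log2 of the summed scaled signals). The 5 were Clec3b, Pdgfra, Col1a1, Tcf21 and Thy1. Of 20 macrophage markers, 19 rose and 0 fell in Ex3abERKO ovaries, with summed levels of 9.69 to 9.88 in Ex3abERKO and 7.96 to 8.62 in control ovaries, and 5 rose in Ex3aERKO ovaries. Of the markers of cells in follicles and corpora lutea, 7 of 10 luteal, 9 of 15 oocyte and 5 of 10 granulosa markers fell in Ex3abERKO ovaries. Of 10 surface epithelium markers, 5 rose in Ex3abERKO and 6 in Ex3aERKO ovaries, where 8 of 13 endothelial and 11 of 15 oocyte markers fell. In Ex3abERKO ovaries 6 of 13 endothelial markers fell and 1 rose. Of 8 markers of theca and interstitial steroid cells, 2 rose and 4 fell in Ex3abERKO, 4 rose and 3 fell in Ex3aERKO, and 2 rose in Ex3bERKO ovaries. Their summed level was 4.57 to 5.20 in Ex3abERKO, 7.15 to 7.34 in Ex3aERKO and 5.75 to 6.96 in Ex3bERKO ovaries, against 5.95 to 6.59 in control ovaries. Oviduct markers summed to 3.12 to 6.37 in Ex3abERKO, 2.95 to 5.06 in Ex3aERKO and 1.19 to 1.75 in Ex3bERKO ovaries, against 0.25 to 0.59 in control ovaries. Of 10 adipocyte markers, 1 rose and 2 fell in Ex3abERKO, 4 fell in Ex3aERKO and 1 fell in Ex3bERKO against control ovaries. In Ex3abERKO against Ex3aERKO ovaries 4 of them rose and 0 fell, where 7.73% of all features were called. Adipocyte markers summed to 5.86 to 6.74 in Ex3abERKO and 4.67 to 5.57 in Ex3aERKO ovaries. They summed to 4.00 to 5.45 in Ex3bERKO and 5.64 to 6.39 in control ovaries. The part of these cell types in the results on the 10 genes was not tested.

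The wider matrix was read through 9 lists of genes related to the 10, without the 10 themselves. Counts in Ex3abERKO against control ovaries stand against the 22.3% of all features called there. Of 10 other small leucine-rich proteoglycans, 2 rose and 0 fell: epiphycan (Epyc), known from growth cartilage, rose by 2.43 ± 0.57 (5.40-fold, adjusted p = 0.00712), and podocan (Podn), well above background on 3 Ex3abERKO and 0 control arrays, was at least 3.03-fold higher (adjusted p = 0.00632). Of 20 other matricellular proteins, 3 rose and 2 fell. Osteopontin (Spp1), which stromal cells and macrophages secrete, rose by 3.63 ± 0.67 (12.4-fold, adjusted p = 0.00156), while thrombospondin 4 (Thbs4) fell by 4.99 ± 0.53 (adjusted p = 5.78e-05) and Smoc1, a relative of osteonectin, fell by 2.54 ± 0.30 (adjusted p = 0.000101). Of 19 large, basement membrane and cell surface proteoglycans, 3 rose and 3 fell. Among them were serglycin (Srgn), the proteoglycan of blood cell granules, at 1.50 ± 0.26 (adjusted p = 0.00103) and syndecan 1 (Sdc1) at -1.57 ± 0.43 (adjusted p = 0.0173). The largest fall was that of brevican (Bcan), at -3.37 ± 0.91 (adjusted p = 0.0157).

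Of 26 fibril collagens and their processing enzymes, 6 rose and 0 fell in Ex3abERKO ovaries. Col12a1, a collagen on the surface of fibrils, rose by 1.72 ± 0.39 (adjusted p = 0.00621), Col1a1, which makes the main fibril chain, by 1.37 ± 0.36 (adjusted p = 0.0129), and lysyl oxidase (Lox), which cross-links fibrils, by 1.30 ± 0.45 (adjusted p = 0.0497). Of 25 elastic fibre, basement membrane and adhesive proteins, 6 rose and 4 fell, with Ltbp2, a microfibril protein, at 2.43 ± 0.23 (adjusted p = 2.19e-05) and Ltbp1, which tethers latent TGFβ, at -2.12 ± 0.27 (adjusted p = 0.000159). Of 16 TGFβ ligands and response genes, which also hold Ltbp1, 4 rose and 1 fell, with the type II receptor Tgfbr2 at 1.43 ± 0.23 (adjusted p = 0.000646). Of 20 receptors of the proteins, 9 rose and 1 fell, among them Tlr2 at 1.58 ± 0.27 (adjusted p = 0.000905) and Tlr4 at 1.60 ± 0.33 (adjusted p = 0.00346), the toll-like receptors that biglycan and decorin bind. Of 23 proteases that cut the proteins and their inhibitors, 9 rose and 0 fell, with Mmp9, a gelatinase, at 2.34 ± 0.45 (adjusted p = 0.00197) and Mmp3, a stromelysin that cuts decorin and fibronectin, at 3.06 ± 0.90 (adjusted p = 0.0247).

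Of 28 enzymes that build and sulfate the sugar chains, 3 rose, 2 fell and 23 were not called in Ex3abERKO ovaries. Ust, which sulfates uronic acid in chondroitin and dermatan sulfate, rose by 1.21 ± 0.22 (adjusted p = 0.00142), the chondroitin 4-O-sulfotransferase gene Chst12 rose by 1.08 ± 0.18 (adjusted p = 0.000889), and the gene of a related sulfotransferase, Chst11, fell by 1.48 ± 0.27 (adjusted p = 0.00132). In Ex3aERKO ovaries Chst1, whose product sulfates keratan sulfate, fell by 2.31 ± 0.43 (adjusted p = 0.00446) and Chst2 by 1.75 ± 0.33 (adjusted p = 0.00446). Chst2 was also called lower in Ex3abERKO (-1.81 ± 0.33, adjusted p = 0.00137) and Chst11 in Ex3aERKO ovaries (-1.16 ± 0.27, adjusted p = 0.0142). Papss2, which makes the sulfate donor, rose in Ex3aERKO ovaries by 1.02 ± 0.21 (adjusted p = 0.00815).

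**Figure D5:**
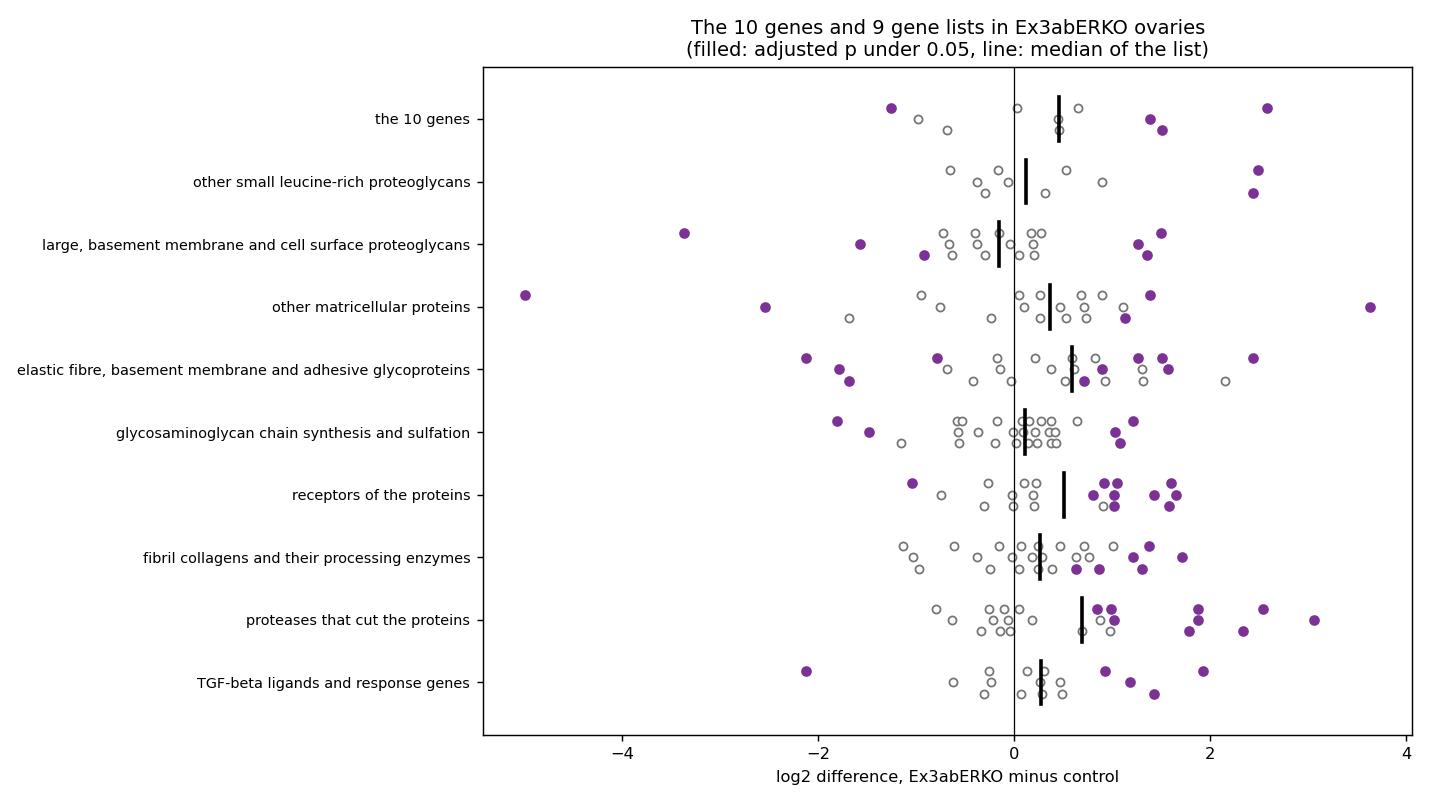
Log2 difference in Ex3abERKO against control ovaries (x axis) of the 10 genes and of each measured gene of 9 lists (rows), with filled points for an adjusted p under 0.05 and a line at each list's median. The list medians lie between -0.15 and 0.69, the median of the 10 genes is 0.45, and all features have a median of -0.11.

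Counts in Ex3aERKO against control ovaries stand against the 8.05% of all features called there. In this comparison 0 of the 10 other small leucine-rich proteoglycans and 3 of the 20 other matricellular proteins rose, while 3 of the matricellular genes fell. Tenascin C (Tnc), which is laid down where matrix is remodelled, fell by 2.39 ± 0.67 (adjusted p = 0.0418), and connective tissue growth factor (Ccn2) rose by 1.27 ± 0.37 (adjusted p = 0.0495). Of the proteases, 5 rose and 3 fell, with Mmp9 at 2.64 ± 0.45 (adjusted p = 0.00254) and Fap, a stromal cell-surface protease, at -1.65 ± 0.26 (adjusted p = 0.00154). In Ex3bERKO against control ovaries Thbs4 fell by 2.85 ± 0.53 (adjusted p = 0.0184) and Ltbp1 by 2.67 ± 0.27 (adjusted p = 0.000644). These 2 were the only genes of the 9 lists called there, where 1.03% of all features were called.

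The 10 genes did not vary as one group from array to array. After the group means were subtracted, the Pearson correlation over the 16 arrays had a median of 0.08 over the 45 pairs and ranged from -0.39 to 0.79, where the points share array, slide and scaling. The highest pairs were Bgn and Fmod (0.79), Lum and Aspn (0.75), Dcn and Postn (0.73) and Dcn and Aspn (0.69), and Fmod and Prelp had 0.34. Ex3abERKO 3 was the lowest Ex3abERKO array for both Bgn and Fmod. The 5 genes whose levels over the 16 arrays were most like the mean standardized level of the 10 were Col1a2 (r = 0.89), Arsj (0.87), Loxl1 (0.86), Lefty1 (0.86) and Selenom (0.84). With group means subtracted they were Mrgprf (0.91), Srpx (0.89), Col5a2 (0.87), Olfml2a (0.86) and Flnc (0.85). Both sets are the highest values in a search of the 18298 features with a symbol, without the 10 genes. They are given as a description and were not tested.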

How the data were processed

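The authors deposited 1 scanner file per array and a table of values, both as intensity on a linear scale. Per the file headers, Agilent Feature Extraction 9.5.3.1 (9.5 per the submitters' processing notes) subtracted background and detrended each array, on a design annotated to build mm7. The deposited table equalled the scanner's processed intensity for all 41174 probes (relative tolerance 1e-04), and its centring between arrays was none. From these, log2 of processed signal over the array's 75th percentile was computed (floor -8.88), 54 to 106 outlier spots per array were left out, saturated spots stayed, and spots of a probe were averaged. Probes well above background on 4 or more arrays (36227) were kept, and a gene was represented by its probe with the highest mean, chosen over all 16 arrays. Symbols came from a RefSeq table through accession for 22951 probes, and 8455 probes had no name. limma 3.58.1 in R 4.3.3 fitted 4 group means with 12 residual degrees of freedom. The number of arrays limits the precision. The 10 genes and all lists were chosen with earlier results of these data known. The 10 genes were named in every comparison, and from each list at most 3 called genes per direction with the largest differences. The fit was tested on simulated data with noise drawn independently for each array, so without a slide effect. In simulated comparisons built alike, it called 34% to 48% of changes of 1 log2 unit and 66% to 86% of changes of 2 units. It also called 1 to 9 unchanged features. A change of about 1 unit can therefore go uncalled. These ranges come from random draws of features and noise and do not tell the comparisons apart. Only a small part of the features was changed in the simulation, which moves the adjusted p, so the shares do not give the power in the real comparisons. Alternatives were scaling, normexp (offset 50), filters, probe choice, slide or replicate blocks, array weights and omission of arrays.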

Additional observations from a re-analysis of the deposited data

Results flagged for a closer look

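In Ex3aERKO ovaries the Lum level of replicate 4 was 1.80, and those of the other 3 arrays lay between 2.76 and 2.86, so that this array stood far below its group. In Ex3abERKO ovaries the Dcn level of replicate 4 was 7.03, and those of the other 3 lay between 7.37 and 7.38. These 2 came from 40 sets of 4 arrays examined, and chance alone marks about 1 in 20. The effect of ERβ loss on Sparc differed by 1.27 between ovaries without and with ERα (adjusted p = 0.0405 for the limma interaction), and this difference was past the threshold in 11 of 29 alternatives. On the second Sparc probe the limma interaction was 1.04 and not called (adjusted p = 0.12 over probes).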

How the results depend on the processing

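Over 30 alternatives (29 for the interaction), Fmod, Prelp and Dcn in Ex3abERKO against control and Fmod and Prelp in Ex3abERKO against Ex3bERKO ovaries stayed called, and no called value changed sign. The number of the 10 genes called, 2 in Ex3aERKO against control, was 1 with normexp, 4 with array weights and 0 without the 3 arrays that stood apart. Of the 3 in Ex3abERKO against Ex3aERKO, 1 was called with normexp and 1 without those 3 arrays. Of the 4 in Ex3abERKO against Ex3bERKO, 2 were called in a fit of the groups compared. The 1 between the single knockouts became 2 with array weights, 0 in a fit of the groups compared and 0 without those 3 arrays. The 1 of the interaction became 0 with median scaling, normexp, the mean of all probes, the slide as a fixed block, the replicate block or the omission of those 3 arrays, 2 with quantile normalization, a filter on all 16 arrays, the slide as a random block or a trended robust fit, and 3 with array weights. Leaving out 1 array gave 1 to 3, 0 to 0, 3 to 4, 1 to 3, 2 to 6, 0 to 1 and 0 to 2 genes in Ex3aERKO, Ex3bERKO and Ex3abERKO against control, Ex3abERKO against Ex3aERKO and Ex3bERKO, the single knockouts and the interaction. The cause of these shifts was not tested.

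With the replicate number as a block the counts were 2, 0, 4, 2, 4, 1 and 0 in that order. Same-numbered arrays of different groups had a median correlation of deviations of -0.07 (24 pairs), and other pairs had -0.03 (72 pairs). The labels do not say what the number marks, and these values cannot tell whether same-numbered samples were paired. Arrays of the same slide had 0.28 (22 pairs) and arrays of different slides -0.07 (74 pairs), and the slide is no term of the fit used for the calls. All features called ran from 557 without the 3 arrays to 5308 with array weights (Ex3aERKO against control), 63 to 824 (Ex3bERKO), 3118 with normexp to 8232 with weights (Ex3abERKO), 609 to 2424 and 1927 to 5752 (Ex3abERKO against Ex3aERKO and Ex3bERKO), 120 to 1563 (single knockouts) and 251 to 1727 (interaction). Normexp moved the median of all features by -0.26, -0.28 and -0.26 in Ex3aERKO, Ex3bERKO and Ex3abERKO against control. It moved the share of higher calls to 27.7% against 38% in Ex3bERKO against control and to 61.8% against 51.1% in the interaction.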

Other observations

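Among genes of the wider matrix, Ex3abERKO ovaries were set against each single knockout as well. Tnc was higher in Ex3abERKO than in Ex3aERKO ovaries by 3.08 (limma adjusted p = 0.0135) and Mmp3 by 4.95 (adjusted p = 0.00507), where 3 of 4 Ex3aERKO arrays were well above background for Mmp3, while Thbs4 was lower by 4.66. Of the fibril collagens and their enzymes 4 of 26 were higher and 0 lower, with Col1a1 at 1.74, Col6a3 at 1.32 and Col14a1 at 1.27, where 7.73% of all features were called. Against Ex3bERKO ovaries, Epyc was higher by 2.27 (adjusted p = 0.0147). Of the 26 fibril collagens and their enzymes, 3 were higher and 2 lower in that comparison, where 16.6% of all features were called.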
